A study of Mus musculus with 9 samples.

Results

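Interferon-stimulated genes were followed in thymus cells of C57BL/6J mice after radiation damage. The list holds 37 named genes, and a gene was taken as measured where a probe set of the array was annotated to that gene symbol alone. Of the 37, 35 had such a probe set, out of 18193 genes measured this way, and 32 reached the level needed for testing (a log2 value of 4 or more on at least 3 of 9 arrays), out of 10937. The 5 others were Isg15, whose only probe set is shared with another gene, Ifi44, which has none, and Oas3, Mx2 and Stat2, which were too dim. Of the 32 tested genes, 31 were at 4 or more on every array, and the exception was Oasl1.

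The study profiled CD45-depleted cells, described as non-hematopoietic stroma, with Affymetrix 430 2.0 arrays. There were 3 groups of 3 arrays, all from female mice 6 to 8 weeks old: untreated mice, mice 4 days after SL-TBI (a sublethal dose of total body irradiation) and mice 7 days after it. Irradiated mice had received 550 cGy from a cesium source without hematopoietic rescue. RNA of several mice was pooled, and how many pools stand behind the replicates is not given in the sources used here, so p-values measure the spread between these arrays. The treatment label also calls the pooled cells "ECs", an abbreviation it does not explain.

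Interferons bind receptors on the cell surface, and type I receptors signal through a complex that holds Stat2 and Irf9, which enters the nucleus and switches on antiviral genes from a promoter element called ISRE. Interferon gamma acts through another element, GAS. In the thymus, medullary epithelium is known to express interferon and many of its target genes without infection.

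Promoters are shown for members that carry letters of the ISRE type and took different courses after irradiation. RefSeq windows (GRCm38.p6) covering 250 bases before to 50 bases from the transcription start were at hand for 27 of the 37 genes. The ISRE-type letters, 2 copies of GAAA with any 2 bases between and read on both strands (TTTC on the other), were in the windows of 15 of these 27 genes, or 55.6%, and of 1079 of 27025 genes in all, or 3.99%. The GAS-type letters, TTC and GAA with any 3 bases between, which read the same on both strands and may overlap the others, were in 6 of 27, or 22.2%, against 9.55% of all genes. Each stretch below lies before the start, reads 5′ to 3′ on the strand of the gene, and has the ISRE-type letters in capitals.
Ifit1, chr19:34640765-34640833, plus strand: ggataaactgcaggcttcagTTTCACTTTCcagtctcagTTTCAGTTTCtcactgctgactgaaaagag
Gbp2, chr3:142620584-142620633, plus strand: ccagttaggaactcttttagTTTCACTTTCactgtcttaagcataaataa
Rsad2, chr12:26456543-26456592, minus strand: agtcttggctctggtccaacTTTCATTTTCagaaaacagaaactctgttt
Cxcl10, chr5:92349073-92349122, minus strand: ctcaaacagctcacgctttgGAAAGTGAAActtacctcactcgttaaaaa
Oas1a, chr5:120907526-120907565, minus strand: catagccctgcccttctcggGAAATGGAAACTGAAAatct
Ifit1 has 2 separate matches, and Oas1a has 2 that overlap. At day 4 Ifit1 and Gbp2 were above untreated and Rsad2 and Cxcl10 below. Oas1a was called lower at day 7 and not at day 4 in the deposited scaling. A match is a description of these letters and says nothing on what binds there.

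Cells of blood origin moved with the groups and so are given before the genes. Ptprc, which encodes CD45, averaged 12.22 ± 0.25 (SD, n = 3, log2) in untreated samples, 4.64 ± 0.53 at day 4 and 9.51 ± 0.22 at day 7. All 12 leukocyte markers and all 15 thymocyte markers tested were lower at both days than in untreated samples (limma, adjusted p under 0.05). Their mean levels ran from 9.24 to 9.44 and from 8.73 to 9.18 in untreated arrays, from 5.67 to 5.84 and 3.26 to 3.57 at day 4, and from 6.81 to 6.99 and 6.33 to 6.43 at day 7. In bulk samples, fewer cells of a type and less RNA per cell cannot be told apart. The 3′ to 5′ difference of Actb probe sets, a sign of RNA quality, averaged 2.28 ± 0.15 (SD, n = 3), 3.13 ± 0.17 and 2.51 ± 0.21 in untreated, day 4 and day 7 samples. Untreated replicate 3 stood apart, with an endothelial mean of 5.79 against 4.12 and 4.27 and a medullary epithelial mean of 6.97 against 8.09 and 8.25. What part these differences have in the values below was not tested.

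**Figure D1:**
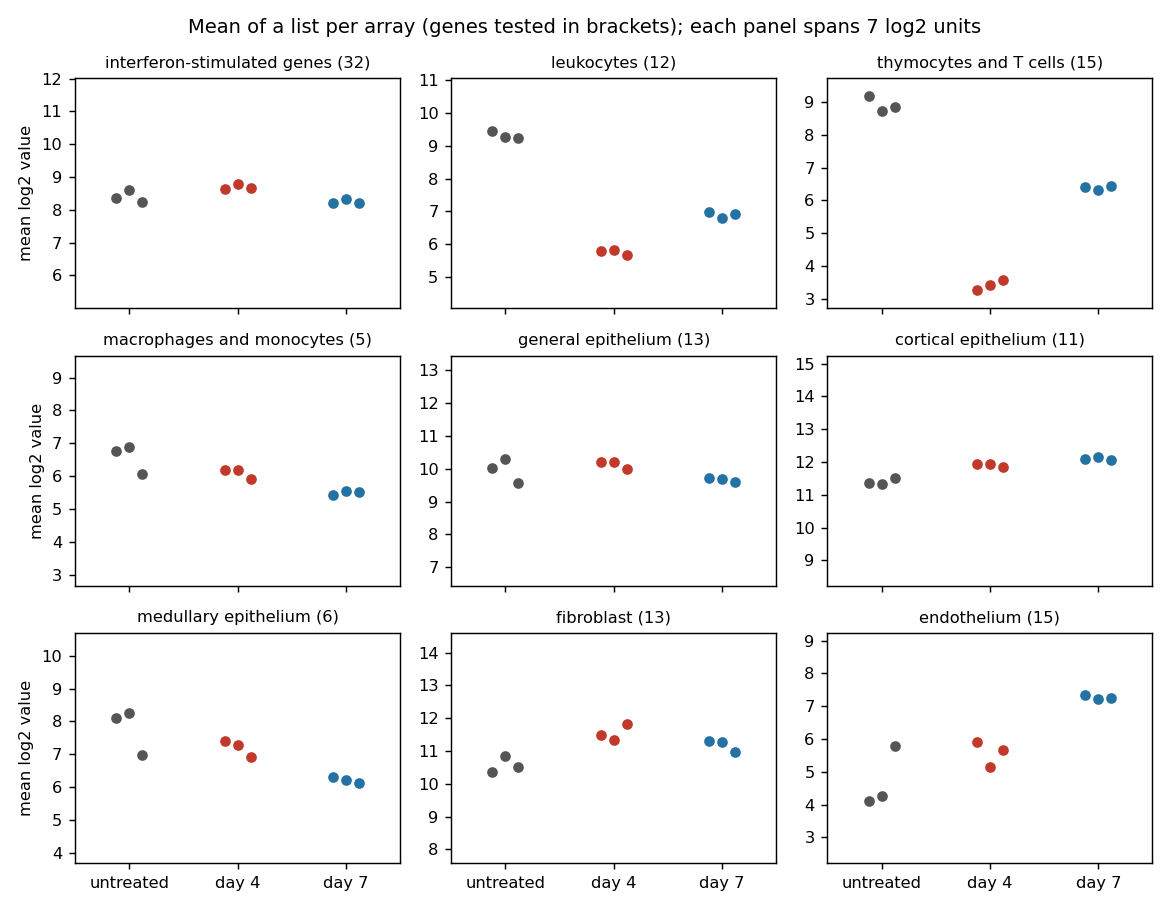
Mean log2 value of the tested genes of each list on each array (y axis) for untreated, day 4 and day 7 samples (x axis, 3 arrays each, 1 point an array); the number in brackets is the genes averaged. Leukocyte means lie between 9.24 and 9.44 in untreated samples and between 5.67 and 5.84 at day 4, while the interferon-stimulated genes stay between 8.22 and 8.79.

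At day 4, most interferon-stimulated genes stood modestly above untreated, and 3 stood well below. By limma over all genes tested (Benjamini-Hochberg adjusted p under 0.05), 19 of the 32 were higher, where 41.8% of all 10937 genes were higher, and 3 were lower, where 21.4% of all genes were. The 19 rose by 0.29 (Ddx58) to 0.98 (Ifi27) on the log2 scale. The 3 that fell were the chemokines Cxcl9 and Cxcl10 and the antiviral enzyme Rsad2, and these were the only members to change by 2-fold or more (9.38%, against 23.2% of all genes). The 19 higher calls depend on how arrays are scaled. After centring on an epithelial list 5 members were higher and 4 lower, where 2459 and 2076 of all 10937 genes were. After centring on 4 stromal lists 0 were higher and 5 lower, where 1448 and 4429 of all genes were. The 4 lists themselves had median differences of 0.28 (general epithelium), 1.26 (fibroblast), 0.99 (endothelium) and 0.38 (pericyte and smooth muscle). The fall of Cxcl9, Cxcl10 and Rsad2 was called under all 4 other scalings. Without untreated replicate 3, 16 members were higher and 4 lower, and Cxcl9, Cxcl10 and Rsad2 were at -1.58, -1.56 and -1.01.

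The position of the list within the array does not rest on centring, since centring moves all genes of an array equally. The median difference of the 32 genes at day 4 was 0.50, against 0.20 over all genes tested, so the list stood 0.30 above the general shift. Of the 32, 25 lay above the median of all genes, as 50% of genes do. At day 7 the medians were 0.02 for the list and 0.09 for all genes, and 13 of 32 members lay above the median of all genes. From day 4 to day 7 they were -0.38 and -0.10, and 28 of 32 members lay below. The 3 comparisons share arrays, so they are not independent of each other. Over the 3 groups together, limma's F-test called 27 of 32 members, or 84.4%, where it called 69.3% of all genes.

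**Figure D2:**
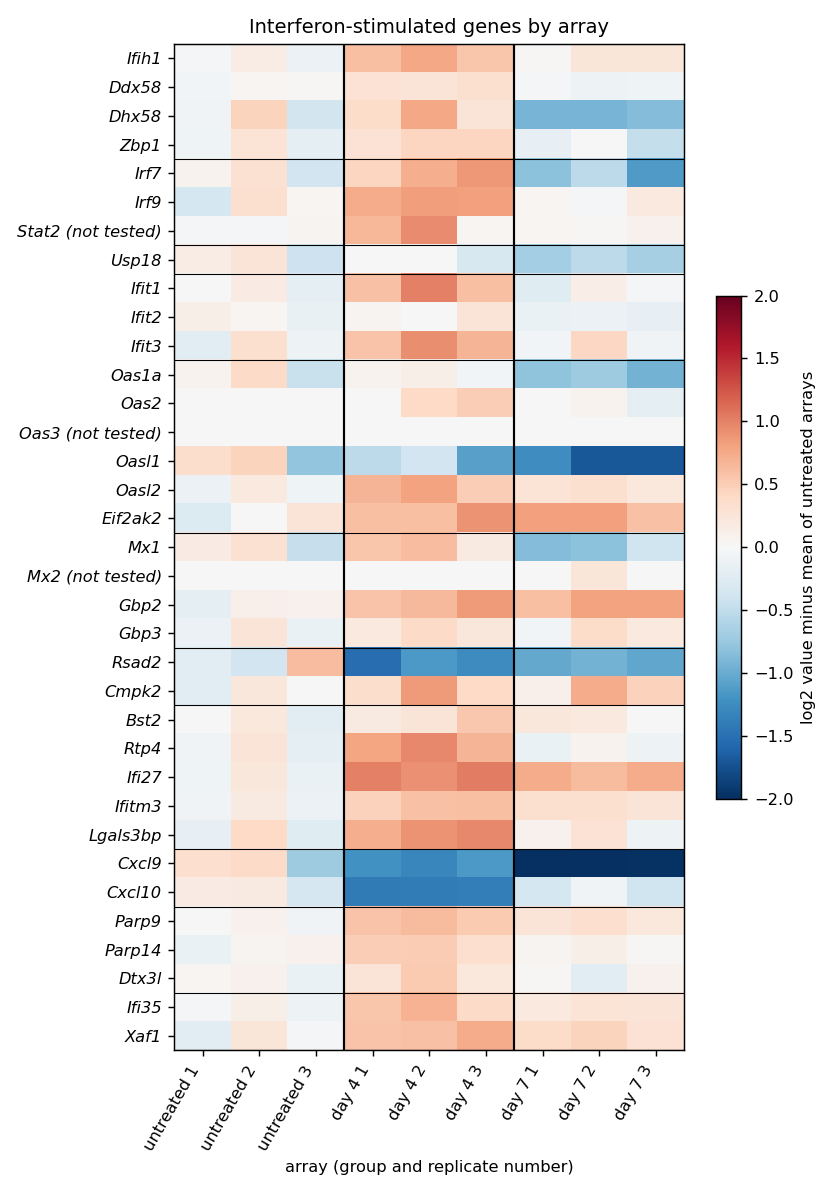
Heat map of the 35 measured genes (rows, in blocks by role) on 9 arrays (columns); colour is the log2 value minus the mean of the untreated arrays and ends at 2 in either direction. Most rows are red at day 4 and paler at day 7; Cxcl9, Cxcl10 and Rsad2 are blue at day 4, and Cxcl9, at -2.03 on average at day 7, reaches the end of the scale. The red of day 4 is relative to the deposited scaling, and 0 of its 19 higher calls remain after centring on 4 stromal lists. That centring calls 1448 of all 10937 genes higher at day 4.

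Both chemokines fell at day 4, and Cxcl10 then returned. Cxcl9 and Cxcl10 bind Cxcr3 and draw activated T cells, and Cxcl9 is a classical target of interferon gamma. Cxcl10 stood at 10.81, 10.83 and 10.32 in untreated arrays, 9.24, 9.26 and 9.27 at day 4, and 10.30, 10.59 and 10.26 at day 7. Day 4 was below both other groups with no overlap, at a difference of -1.40 (SE 0.15, limma adjusted p = 6.3e-05) from untreated, or 2.63-fold lower. By day 7 Cxcl10 overlapped untreated (-0.27, adjusted p = 0.16) and 2.19-fold above day 4 (1.13, adjusted p = 0.0013), the one member called higher at day 7 than at day 4. Without untreated replicate 3 it was lower at day 7 as well, at -0.43 (adjusted p = 0.014).

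Cxcl9 was lower at both days. Its values were 9.58, 9.63 and 8.53 in untreated arrays, 8.03, 7.94 and 8.10 at day 4, and 7.12, 7.25 and 7.27 at day 7. No groups overlap, and the difference from untreated was -1.22 (SE 0.25, adjusted p = 0.0027) at day 4 and -2.03 (SE 0.25, adjusted p = 0.00028) at day 7, or 4.09-fold lower, the largest change of a member. Its step from day 4 to day 7, -0.81 (adjusted p = 0.044), was not called when any of the 6 irradiated arrays was left out (adjusted p = 0.089 to 0.11). It was called under 1 of 4 other scalings and was -0.34 after centring on the epithelial list. A dimmer second probe set gave -0.66 and -0.91 at the 2 days, and its step between them was not called (-0.25, adjusted p = 0.49). Untreated replicate 3, low in Cxcl9, was also low in the medullary epithelial mean and in the mean of 5 tested macrophage markers (6.07 against 6.75 and 6.90). The macrophage mean ran from 5.90 to 6.20 at day 4 and from 5.43 to 5.54 at day 7, with 3 of the 5 lower at each day, and 7 of the list's 12 genes (Adgre1, Cd68, C1qa, C1qc, Fcgr1, Cx3cr1 and Ms4a7) were under 4 on all arrays. The medullary mean ran from 6.91 to 7.39 and from 6.12 to 6.29, with 6 of 6 genes lower at day 7. Their part in the Cxcl9 values was not tested.

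**Figure D3:**
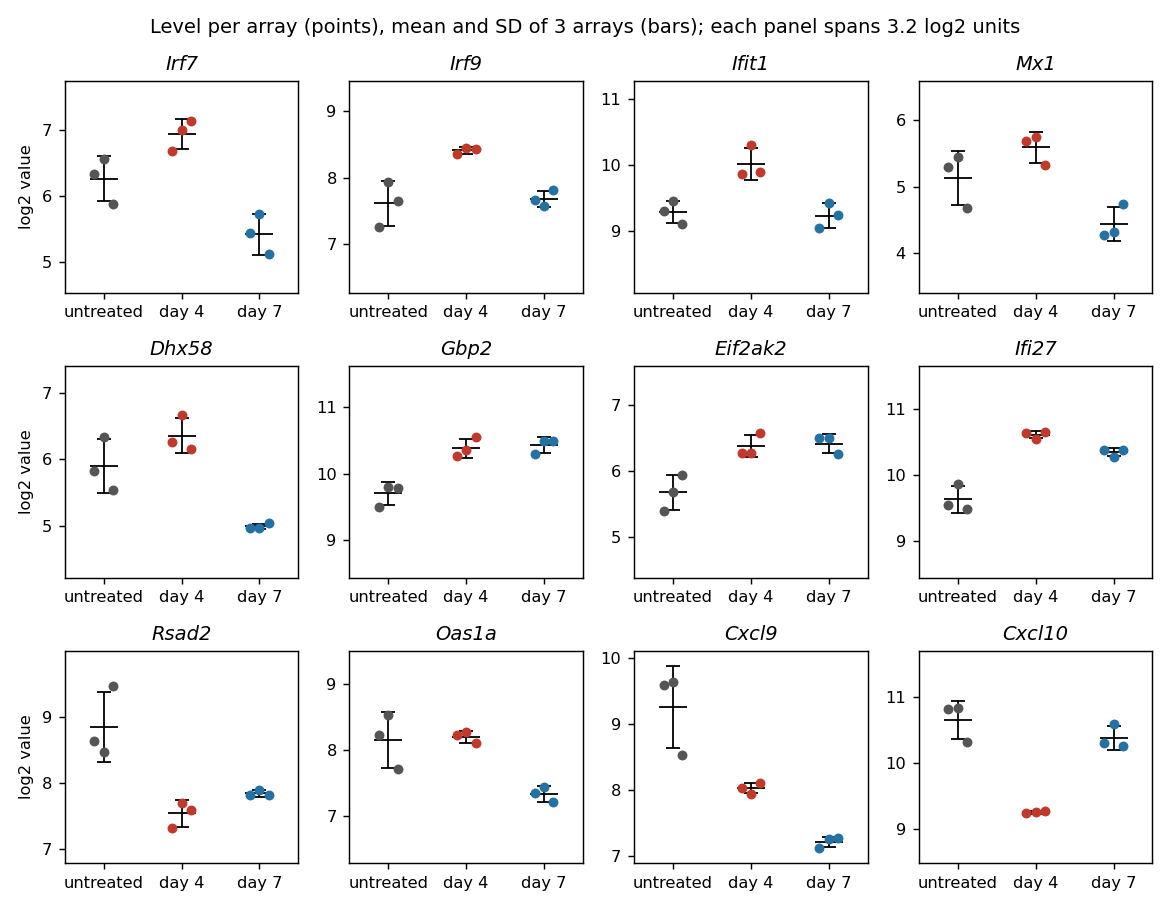
Log2 value per array (points) with the mean and SD of 3 arrays (bars) for 12 genes, in untreated, day 4 and day 7 samples; every panel spans 3.2 log2 units. Irf7, Mx1 and Dhx58 are lowest at day 7, Gbp2, Eif2ak2 and Ifi27 lie above untreated at both days in the deposited scaling (below it at day 7, by 0.26 to 0.29, after centring on 4 stromal lists), and Cxcl10 dips at day 4 to 9.25 and is at 10.38 at day 7.

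Rsad2 and Cmpk2, next to each other in the genome with no protein-coding gene between, went different ways. Rsad2 (viperin) makes a nucleotide that stops viral RNA synthesis, and Cmpk2 is a mitochondrial nucleotide kinase. Rsad2 read 8.63, 8.46 and 9.46 in untreated arrays, 7.32, 7.70 and 7.59 at day 4, and 7.82, 7.90 and 7.81 at day 7. All irradiated arrays were below all untreated ones. The difference of means was -1.32 at day 4 (SE 0.23, limma adjusted p = 0.0011) and -1.01 at day 7 (limma adjusted p = 0.0059). The day 7 fall was called under 3 of 4 other scalings, at -0.71 at the weakest. Without untreated replicate 3 it was -0.70 (adjusted p = 0.0026). All 3 probe sets of Rsad2 were lower at both days. Cmpk2 averaged 6.98 ± 0.23 (SD, n = 3), 7.51 ± 0.27 and 7.40 ± 0.32, and its difference at day 4, 0.53 (adjusted p = 0.041), was lost when any of 5 arrays was left out (adjusted p = 0.054 to 0.14) and was -0.01 after centring on 4 stromal lists.

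In the deposited scaling Irf9 and Irf7, the list's tested transcription factors, rose at day 4 and had lost that rise by day 7. Irf9, which gives the complex with Stat2 its DNA binding, stood at 7.26, 7.93 and 7.65 in untreated arrays, 8.36, 8.45 and 8.43 at day 4, and 7.66, 7.57 and 7.81 at day 7. Day 4 was above both other groups with no overlap, by 0.80 over untreated (SE 0.16, adjusted p = 0.0019), or 1.74-fold, and day 7 was close to untreated (0.07, adjusted p = 0.74). Irf7, which amplifies interferon alpha production, read 6.33, 6.56 and 5.88, then 6.68, 6.99 and 7.13, then 5.43, 5.73 and 5.12. It passed above untreated at day 4 (0.67, adjusted p = 0.021) and below it at day 7 (-0.83, adjusted p = 0.0096), and the step between, -1.51 (SE 0.21, adjusted p = 0.0017), was the largest fall of a member from day 4 to day 7. The day 4 rise of Irf7 was not called without untreated replicate 3, day 4 replicate 2 or day 4 replicate 3 (adjusted p = 0.058 to 0.071). It was called under 1 of 4 other scalings, at 0.13 at the lowest. The day 7 fall of Irf7 was called under 3 of 4, at -0.53 at the weakest. Stat2 was at 3.81, 3.82 and 3.89 in untreated arrays, 4.50, 4.78 and 3.88 at day 4, and 3.87, 3.88 and 3.93 at day 7. Only 2 arrays reached 4, so Stat2 was not tested.

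Among the sensors of foreign RNA and DNA, all 4 were lower at day 7 than at day 4, where 17.6% of all genes were. After centring on the epithelial list only Dhx58 was called, with Ifih1 at -0.01, Zbp1 at -0.12 and Ddx58 at 0.10. With that centring 301 of all 10937 genes were lower. Ifih1, a sensor of long double-stranded RNA, stood at 9.29, 9.48 and 9.22 in untreated arrays, 9.93, 10.11 and 9.89 at day 4, and 9.36, 9.57 and 9.57 at day 7. It was higher at day 4 (0.65, SE 0.11, adjusted p = 0.0008) and fell by 0.48 from there (difference -0.48, adjusted p = 0.013). Ddx58, known as RIG-I, read 7.53, 7.62 and 7.61, then 7.88, 7.85 and 7.90, then 7.55, 7.48 and 7.50, a small shift with little spread (0.29, adjusted p = 0.0079) that became -0.25 after centring on 4 stromal lists. A second Ddx58 probe set stayed up at day 7 (0.56, adjusted p = 0.014), where the one standing for the gene gave -0.08. The Ddx58 step from day 4 to day 7 was -0.37 (adjusted p = 0.0081), but -0.03 in the second probe set (adjusted p = 0.91).

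Dhx58 regulates both RNA sensors, and Zbp1 is a sensor of left-handed nucleic acid that can trigger cell death. Dhx58 stood at 5.83, 6.34 and 5.53, then 6.27, 6.67 and 6.15, then 4.97, 4.97 and 5.04. The 3 day 7 arrays were nearly equal and lay below every other array. The difference of means for Dhx58 was -0.91 from untreated (limma adjusted p = 0.0051) and -1.37 from day 4 (SE 0.20, limma adjusted p = 0.0021). Its day 4 difference of 0.46 (adjusted p = 0.073) was called without untreated replicate 2 (0.68, adjusted p = 0.0068). Zbp1 read 7.06, 7.43 and 6.97, then 7.44, 7.58 and 7.58, then 6.99, 7.16 and 6.67. Its day 4 arrays lay above both other groups, with a difference of 0.38 from untreated (adjusted p = 0.056) that was called without untreated replicate 2 or day 7 replicate 3 (adjusted p = 0.013 and 0.038). It fell to day 7 by 0.59 (difference -0.59, adjusted p = 0.023), a call lost without any of 4 irradiated arrays (adjusted p = 0.052 to 0.072). A dimmer second Zbp1 probe set gave -0.93 between the days (limma adjusted p = 0.013). Its day 7 difference from untreated was -0.47 and not called (limma adjusted p = 0.085).

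The IFIT proteins bind viral RNA ends and block translation. Ifit1 read 9.30, 9.45 and 9.11 in untreated arrays, 9.87, 10.30 and 9.89 at day 4, and 9.04, 9.42 and 9.24 at day 7. Ifit3 read 8.38, 8.93 and 8.50, then 9.17, 9.53 and 9.28, then 8.55, 9.01 and 8.53. Both rose at day 4, Ifit1 by 0.74 (SE 0.15, adjusted p = 0.0027) and Ifit3 by 0.72 (SE 0.18, adjusted p = 0.0076), and both were near untreated at day 7 (-0.05 and 0.09). The return of Ifit1 (-0.79, limma adjusted p = 0.0067) was called whichever single array was left out. That of Ifit3 (-0.63, adjusted p = 0.034) was lost without any of 5 irradiated arrays (adjusted p = 0.052 to 0.11). Of 4 other scalings, 3 called the return of Ifit1 and 2 that of Ifit3, at -0.32 and -0.16 at the weakest. The day 4 rises were called under 3 and 2 of the 4, at 0.20 and 0.18 at the lowest. Ifit2, the direct neighbour of Ifit3, had differences of 0.10, -0.13 and -0.24 in the 3 comparisons, none of which passed the test.

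Oligoadenylate synthetases make the signal that activates RNase L, and the kinase Eif2ak2 (PKR) stops translation on double-stranded RNA. This group of 5 tested genes, the kinase included, gave mixed readings. At day 4, 2 were higher, Oasl2 and Eif2ak2, where 41.8% of all genes were. At day 7, 1 was higher, Eif2ak2, and 2 were lower, Oas1a and Oasl1, where 32.1% and 22.0% of all genes were. Eif2ak2 read 5.39, 5.68 and 5.93 in untreated arrays, 6.27, 6.27 and 6.57 at day 4, and 6.49, 6.49 and 6.25 at day 7, higher at both days (0.70 and 0.74, adjusted p = 0.0035 and 0.0034) with no change between (0.04, adjusted p = 0.87). One of its 3 probe sets differed, at -0.10 at day 4 and 0.52 (adjusted p = 0.019) from day 4 to day 7, and after centring on 4 stromal lists its day 7 difference was -0.26. Oas1a read 8.22, 8.53 and 7.71, then 8.23, 8.27 and 8.10, then 7.35, 7.44 and 7.21. It was unmoved at day 4 (0.05, adjusted p = 0.83) and below every other array at day 7 (-0.82, SE 0.18, adjusted p = 0.0052).

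The adjacent genes Oasl1 and Oasl2 went apart. Oasl1, an inhibitor of Irf7 translation, read 5.34, 5.43 and 4.20 in untreated arrays, 4.46, 4.61 and 3.90 at day 4, and 3.74, 3.30 and 3.29 at day 7. All its day 7 arrays were below the detection level, which makes it at least 1.99-fold lower than untreated (difference -1.54, SE 0.33, adjusted p = 0.0038). Its day 4 difference, -0.67 (adjusted p = 0.10), was -1.07 (adjusted p = 0.0036) without untreated replicate 3. Oasl2 averaged 9.74 ± 0.17 (SD, n = 3), 10.40 ± 0.16 and 10.01 ± 0.06, higher at day 4 by 0.66 (adjusted p = 0.001). Its step down to day 7, -0.39 (adjusted p = 0.034), was lost without any of 5 irradiated arrays (adjusted p = 0.073 to 0.11) and was 0.08 after centring on the epithelial list. Oas2 averaged 4.87 ± 0.01, 5.17 ± 0.26 and 4.83 ± 0.12, with no comparison called, though without day 4 replicate 1 its day 4 difference was 0.45 (adjusted p = 0.0075) and its step to day 7 was -0.48 (adjusted p = 0.02). Oas3 was at 2.27, the lowest value of the table, on all 9 arrays.

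Of the GTPases, Mx1 fell and Gbp2 rose. Mx1 read 5.29, 5.44 and 4.67 in untreated arrays, 5.69, 5.75 and 5.32 at day 4, and 4.26, 4.31 and 4.74 at day 7. Its day 7 arrays lay below all day 4 arrays (-1.15, SE 0.22, adjusted p = 0.0062, or 2.22-fold lower), and overlapped untreated, where the difference of -0.70 (adjusted p = 0.024) was lost without any of 4 arrays (adjusted p = 0.073 to 0.08). The day 4 difference of Mx1, 0.45 (adjusted p = 0.10), was 0.60 without untreated replicate 2 (adjusted p = 0.047). Gbp2, a guanylate-binding protein that coats intracellular microbes, read 9.50, 9.80 and 9.79, then 10.26, 10.35 and 10.55, then 10.30, 10.50 and 10.50. All irradiated arrays lay above all untreated ones. The difference of means was 0.69 (limma adjusted p = 0.001) at day 4 and 0.74 (limma adjusted p = 0.0011) at day 7. After centring on 4 stromal lists, though, the day 7 difference was -0.27. Gbp3, with 1 gene between it and Gbp2, had differences of 0.27, 0.16 and -0.11 with none called, except 0.40 at day 4 without untreated replicate 2 (adjusted p = 0.029). Mx2 lay between 2.29 and 2.53.

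Isg15 is a small protein that is joined to others like ubiquitin, and Usp18 removes it and also damps the type I receptor. Isg15 has no value of its own here. Usp18 read 10.26, 10.36 and 9.70 in untreated arrays, 10.10, 10.11 and 9.79 at day 4, and 9.42, 9.59 and 9.45 at day 7. Day 4 overlapped untreated (-0.10, adjusted p = 0.62) and day 7 lay below both (-0.62 from untreated, SE 0.17, adjusted p = 0.015). With untreated replicate 1 left out, day 7 no longer passed (-0.54, adjusted p = 0.055). The step from day 4 (-0.52, adjusted p = 0.055) was called without untreated replicate 2, untreated replicate 3 or day 4 replicate 3 (adjusted p = 0.01 to 0.049).

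Of 5 membrane and secreted products, 4 were higher at day 4, where 41.8% of all genes were. Ifi27, a membrane protein of mitochondria and the nuclear envelope and one of the usual markers of a type I response, read 9.54, 9.86 and 9.49 in untreated arrays, 10.63, 10.55 and 10.65 at day 4, and 10.37, 10.27 and 10.37 at day 7. It had the largest rise of a member at day 4 (0.98, SE 0.11, adjusted p = 7.1e-05, or 1.98-fold) and was still 0.71 higher at day 7 (adjusted p = 0.00074), or -0.29 after centring on 4 stromal lists. Lgals3bp, a secreted glycoprotein that binds galectins, read 8.60, 9.17 and 8.53, then 9.49, 9.67 and 9.73, then 8.85, 9.05 and 8.67. It rose by 0.86 at day 4 (SE 0.18, adjusted p = 0.0025) and fell back (-0.77, adjusted p = 0.014; -0.68 and adjusted p = 0.05, just short of the threshold, without day 7 replicate 3).

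Rtp4, a chaperone of membrane receptors, showed the same course with less spread, at 8.51, 8.84 and 8.39, then 9.37, 9.54 and 9.26, then 8.44, 8.65 and 8.48. Its rise of 0.81 (SE 0.13, adjusted p = 0.00071) was gone at day 7 (-0.06, adjusted p = 0.74). Ifitm3, which blocks virus entry at endosomes, read 13.60, 13.85 and 13.55, then 14.13, 14.25 and 14.27, then 13.99, 13.99 and 13.92. It was higher at day 4 (0.55, adjusted p = 0.0013) and at day 7 (0.30, adjusted p = 0.03), the latter lost without any of 5 arrays (adjusted p = 0.054 to 0.092) and -0.70 after centring on 4 stromal lists. Bst2 (tetherin), which holds budding virus at the cell surface, read 9.50, 9.70 and 9.29, then 9.68, 9.75 and 10.03, then 9.73, 9.69 and 9.50. The groups overlapped in all comparisons and none was called (0.33, 0.14 and -0.18), except at day 4 without untreated replicate 2 (0.43, adjusted p = 0.024).

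Parp9, Dtx3l and Parp14 lie side by side in the genome, and Parp9 and Dtx3l proteins work as a pair that modifies histones and ubiquitin. All 3 were higher at day 4, by 0.58 (Parp9, adjusted p = 0.00031), 0.44 (Parp14, adjusted p = 0.0024) and 0.33 (Dtx3l, adjusted p = 0.044), but Parp14 and Dtx3l were at -0.09 and -0.21 after centring on 4 stromal lists. The Dtx3l call was lost without any of 6 arrays (adjusted p = 0.05 to 0.15). Parp9 averaged 8.49 ± 0.08 (SD, n = 3), 9.07 ± 0.06 and 8.76 ± 0.06, and its smaller rise at day 7 (0.27, adjusted p = 0.023) was lost without any of 4 arrays (adjusted p = 0.056 to 0.08) and -0.74 with that centring. From day 4 to day 7 Parp9 and Parp14 fell by 0.32 and 0.38 (differences -0.32 and -0.38, adjusted p = 0.023 and 0.016), losing the call without any of 4 and 3 irradiated arrays (adjusted p = 0.054 to 0.076) and standing at 0.16 and 0.09 after centring on the epithelial list. Dtx3l averaged 8.57 ± 0.12, 8.89 ± 0.17 and 8.52 ± 0.17, and its step down (-0.37, adjusted p = 0.056) was called without untreated replicate 3 (adjusted p = 0.048).

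Xaf1, a partner and inhibitor of the apoptosis inhibitor Xiap, read 9.01, 9.48 and 9.21, then 9.81, 9.82 and 9.97, then 9.60, 9.68 and 9.52. It was higher at day 4 (0.64, adjusted p = 0.0018) and at day 7 (0.37, adjusted p = 0.032), the latter lost without any of 4 arrays (adjusted p = 0.07 to 0.11) and -0.63 after centring on 4 stromal lists. Ifi35 averaged 11.86 ± 0.11 (SD, n = 3), 12.41 ± 0.15 and 12.11 ± 0.04, and rose at day 4 by 0.55 (adjusted p = 0.0015). Its day 7 difference was 0.25 (adjusted p = 0.068), and 0.31 without untreated replicate 2 (adjusted p = 0.038). Its 2 other probe sets were higher at day 7 on all arrays (0.35 and 0.37, adjusted p = 0.017 and 0.022).

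**Figure D4:**
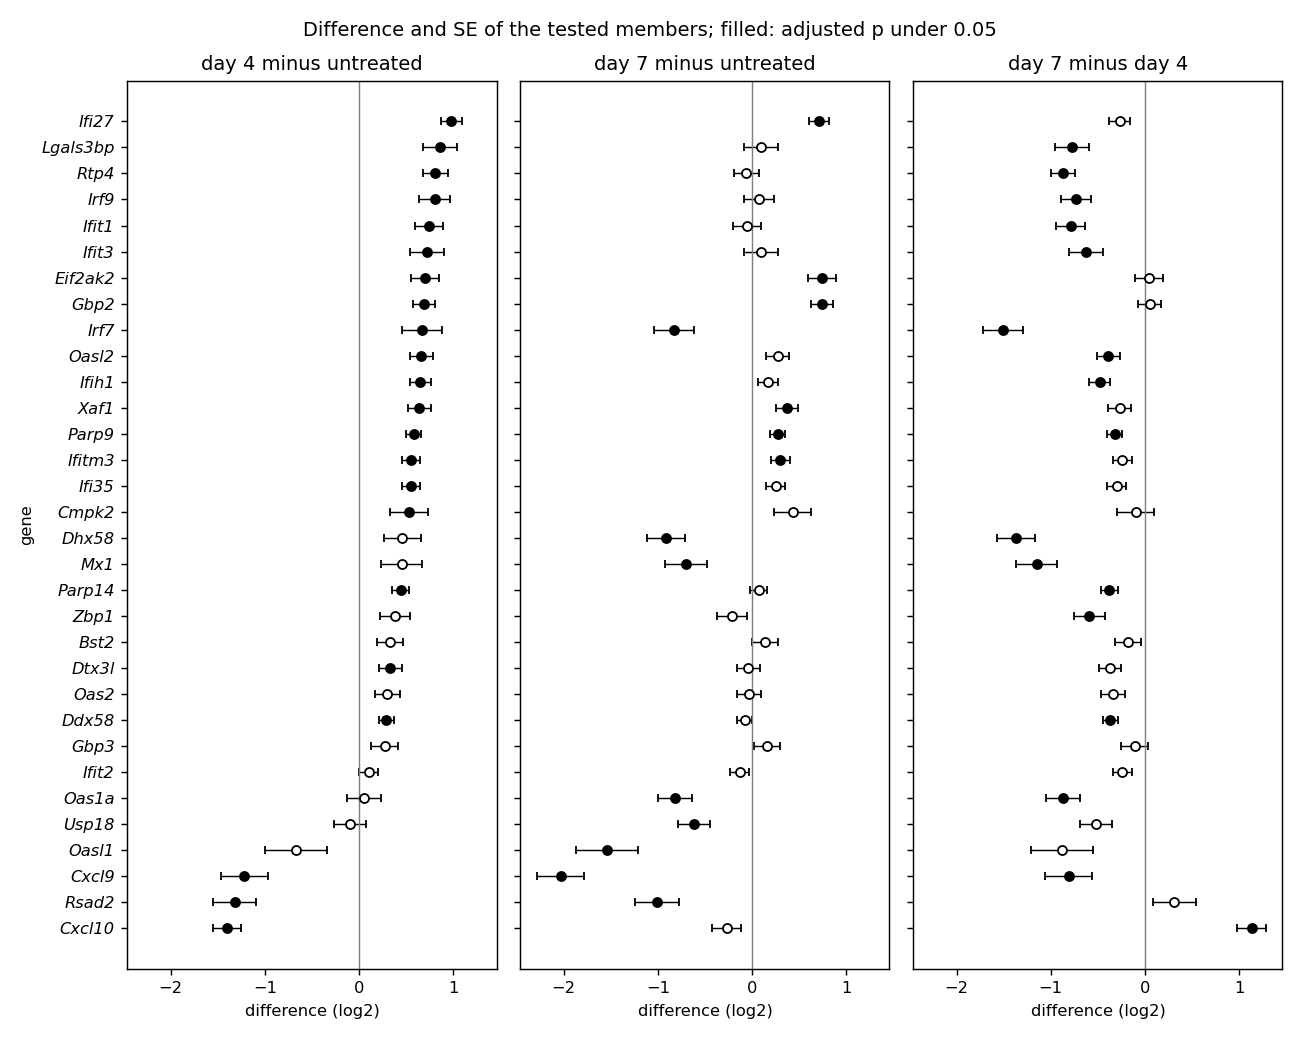
Difference (x axis, log2) with its SE for the 32 tested genes (rows, ordered by the first panel) in the 3 comparisons, which share arrays; filled points have a limma adjusted p under 0.05. In the deposited scaling the day 4 differences run from -1.40 to 0.98 with 19 filled above 0, and from day 4 to day 7 16 are filled below 0 and 1 above. Centring on 4 stromal lists leaves 0 filled above 0 at day 4, where it calls 1448 of all 10937 genes higher. Centring on the epithelial list leaves 3 filled below 0 between the days, where it calls 301 of all genes lower.

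At day 7 the list no longer stood to one side of untreated. It held 6 genes that were higher (Parp9, Xaf1, Ifitm3, Ifi27, Gbp2 and Eif2ak2), where 32.1% of all genes were higher, and 8 that were lower (Cxcl9, Oasl1, Rsad2, Dhx58, Irf7, Oas1a, Mx1 and Usp18), where 22.0% of all genes were. The share called in either direction was 43.8%, against 54.1% of all genes. Centring on the epithelial list gave 9 higher and 4 lower, where 4278 and 1086 of all 10937 genes were. Centring on 4 stromal lists gave 0 and 29, where 343 and 8506 of all genes were. The 4 lists themselves had median differences of 0.01 (general epithelium), 0.67 (fibroblast), 2.71 (endothelium) and 0.85 (pericyte and smooth muscle) at day 7. This centring takes the change in the mean of the 4 lists off every gene. The falls of Cxcl9 and Oas1a were called under all 20 alternatives run, and those of Oasl1 and Dhx58 under the 19 in which they were tested. The number higher was 3 without untreated replicate 1, untreated replicate 3 or day 7 replicate 2. Without untreated replicate 3, 9 were lower and Cxcl9 was at -2.39.

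Between day 4 and day 7 the list moved down more than the genes around it. Lower at day 7 were 16 of 32, where 17.6% of all genes were lower, and Cxcl10 alone was called higher, where 9.78% of all genes were. In 24 of 32 genes every day 7 array lay below every day 4 array, or 75.0%, against 33.8% of all genes. The falls reached 2-fold in Irf7, Dhx58 and Mx1 (2.84-fold, 2.58-fold and 2.22-fold), and with Cxcl10 4 members, or 12.5%, changed that far and passed, against 7.17% of all genes. The fall of Irf7 was called under all 20 alternatives, and those of Dhx58 and Mx1 under the 19 in which they were tested. The number lower was 10 without day 4 replicate 2 and 9 without day 7 replicate 3. After centring on the epithelial list 3 were lower and 1 higher, where 301 and 2326 of all 10937 genes were. After centring on 4 stromal lists 29 were lower and 1 higher, where 6769 and 433 of all genes were.

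**Figure D5:**
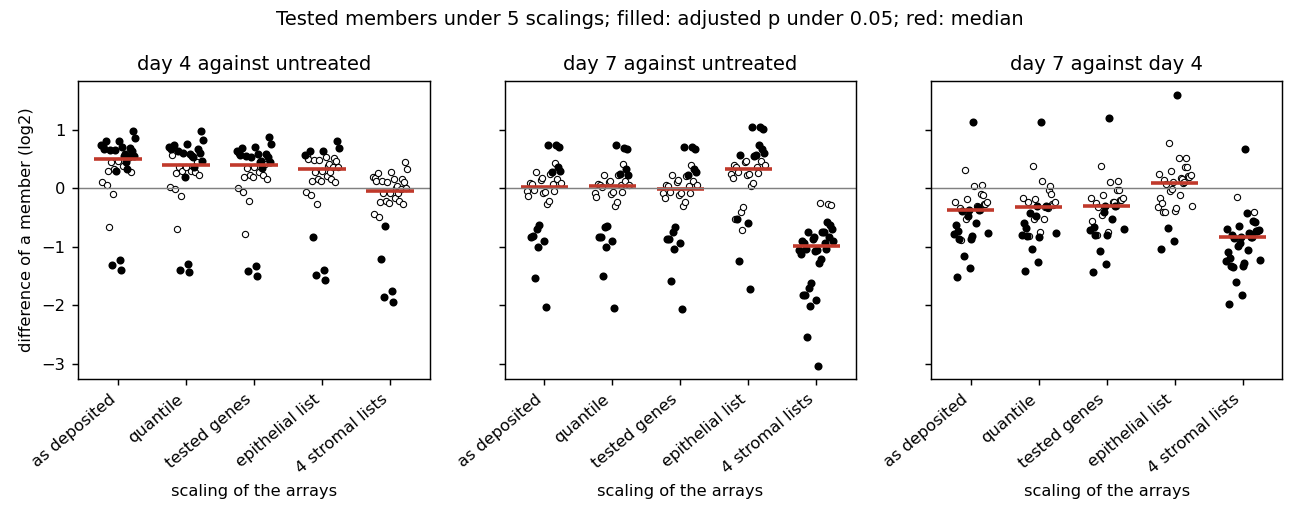
Differences of the 32 tested genes (y axis, log2; filled where adjusted p is under 0.05; red line, median) in 3 comparisons under 5 ways of scaling the arrays (x axis). The day 4 median is 0.50 as deposited, 0.33 after centring on the epithelial list and -0.04 after centring on 4 stromal lists; the medians between the days are -0.38, 0.10 and -0.84; the spread among genes is the same under each centring.

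Interferons themselves were mostly too dim to follow. Of 21 ligand genes 10 have a probe set of their own, and 8 of these, Ifnb1 and 6 interferon alpha genes among them, stayed under 4 on all arrays. Ifnb1 lay between 2.27 and 2.30. Ifnz (interferon zeta, or limitin) read 4.35, 4.48 and 4.58 in untreated arrays, 5.77, 5.60 and 5.29 at day 4, and 4.49, 4.61 and 4.54 at day 7, above both other groups at day 4 (1.08, SE 0.13, adjusted p = 0.0001). Ifng read 3.14, 4.06 and 4.48, then 2.86, 2.77 and 2.71, then 3.34, 3.33 and 4.15. Only 3 arrays reached 4, and all group means were below it, so no difference is given.

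The receptor chains did not move as one. Ifnar2, the signalling chain for type I interferon, averaged 8.09 ± 0.15 (SD, n = 3), 8.83 ± 0.12 and 8.66 ± 0.12 in untreated, day 4 and day 7 samples, higher at both days (0.74 and 0.57, adjusted p = 0.00045 and 0.0028; 0.20 and -0.43 after centring on 4 stromal lists). Its partner Ifnar1 averaged 6.29 ± 0.14, 6.29 ± 0.11 and 6.45 ± 0.06, with no comparison called. Ifngr1, the binding chain for interferon gamma, read 8.92, 8.74 and 9.06, then 7.92, 7.59 and 7.79, then 8.31, 8.17 and 8.03, lower at both days (-1.14 and -0.74, adjusted p = 7.7e-05 and 0.0013) with no overlap, though day 7 was -0.44 and not called after centring on the epithelial list. Ifngr2 averaged 6.62 ± 0.09, 6.99 ± 0.16 and 6.49 ± 0.18, higher at day 4 by 0.38 (adjusted p = 0.024; -0.16 after centring on 4 stromal lists). That call was lost when untreated replicate 1 or day 4 replicate 3 was left out (adjusted p = 0.08 and 0.083). The Ifngr1 fall moved with the leukocyte markers given above, and their part in it was not tested. Of 8 receptor and kinase genes tested, 4 were higher and 1 lower at day 4, and 3 higher and 1 lower at day 7, beside shares over all genes of 41.8% and 21.4% at day 4 and 32.1% and 22.0% at day 7. Il10rb, shared by the lambda interferons, rose most (0.96 and 0.76, adjusted p = 7.8e-05 and 0.00048; 0.42 and -0.24 after centring on 4 stromal lists).

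Of 14 genes for signalling and interferon regulatory factors tested, 6 were higher and 2 lower at day 4, and 4 higher and 2 lower at day 7, beside the same shares over all genes. Tlr3, the endosomal sensor of double-stranded RNA, rose by 1.19 (SE 0.10, adjusted p = 1.4e-05) at day 4 and 0.85 (adjusted p = 0.00018) at day 7, or -0.15 at day 7 after centring on 4 stromal lists. Ikbke, a kinase that activates Irf3 and Irf7, fell at both days (-0.76 and -1.35, adjusted p = 0.00089 and 8e-05). Of 11 negative regulators 1 was higher and 2 were lower at day 4, and 2 were higher and 3 lower at day 7, where 41.8% and 32.1% of all genes were higher and 21.4% and 22.0% lower. Ptpn6 was lower at both days (-0.81 and -1.07, limma adjusted p = 0.0015 and 0.0005). Rnaseh2b was lower at both as well (-0.53 and -0.61, limma adjusted p = 0.0014 and 0.00096). At day 7 Rnaseh2b was at -0.31 and not called after centring on the epithelial list. Socs3, which blocks Jak kinases, averaged 10.62 ± 0.59 (SD, n = 3), 10.93 ± 0.28 and 12.33 ± 0.16, a late rise of 1.70 over untreated (adjusted p = 0.00087). Nlrc5, the activator of class I antigen presentation genes, fell from day 4 to day 7 by 1.04 (difference -1.04, adjusted p = 0.0044), which was -0.57 and not called after centring on the epithelial list. Its day 7 difference from untreated, -0.87 (limma adjusted p = 0.0038), was called under all 20 alternatives.

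Of a further 33 interferon-induced genes outside the list, 17 were higher and 6 lower at day 4, where 41.8% and 21.4% of all genes were, with a median difference of 0.24 against 0.20 over all genes. From day 4 to day 7, 2 were higher and 11 lower, where 9.78% and 17.6% of all genes were, at a median of -0.22 against -0.10. Epsti1 ran from 8.08 to 8.49 in untreated arrays, 4.66 to 5.23 at day 4 and 4.51 to 5.04 at day 7, lower at both days (differences -3.33 and -3.53, adjusted p = 1.8e-06 and 6.6e-06). Helz2 was lower as well (-1.47 and -1.14, adjusted p = 3.5e-05 and 0.00028). Ifitm1, a relative of Ifitm3, was higher at day 4 by 1.27 (adjusted p = 2.2e-05) and fell by 0.77 after it (difference -0.77, adjusted p = 0.0021; -0.30 and not called after centring on the epithelial list). All 12 leukocyte markers were lower at both days too. From day 4 to day 7, 5 of the 12 markers were higher, 1 was lower and 6 were not called. Epsti1 and Helz2 changed by -0.20 and 0.33 between those days, with neither called (limma adjusted p = 0.47 and 0.12). The part of the markers in these falls was not tested.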

How the data were processed

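The authors' deposited table holds log2 values of 45101 probe sets on 9 arrays, and the submitters' processing notes name GCRMA; the log base was read from the values (2.27 to 15.52). GCRMA aligns the distributions of arrays, so differences are relative to the other genes of an array. Between 26.1% and 27.2% of an array's values lay at its floor. A gene was represented by its single-symbol probe set with the highest mean; 34945 probe sets had 1 symbol, 932 several and 9160 none, beside 64 controls. limma 3.58.1 in R 4.3.3 (lmFit, eBayes) fitted 1 model with a group term to 9 arrays, over 10937 genes, with Benjamini-Hochberg adjustment; detection needed log2 4 on 3 arrays. The script recovered known changes in simulated data. The members and lists were chosen with earlier results of these data known. Values per array are given for 18 members set by rule and for the 4 largest rises and falls past the threshold in each comparison. Other named pathway genes are the fixed receptors and ligands, and some genes per list among those with the smallest adjusted p in a comparison. Alternatives covered filters, probe sets, 4 scalings, array weights, a replicate block and leaving out each array. The number of arrays limits precision.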

Additional observations from a re-analysis of the deposited data

Results flagged for a closer look

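For 17 of the 32 tested interferon-stimulated genes, the difference from untreated at day 7 was not the same as at day 4, by limma's test of day 7 against day 4 (adjusted p under 0.05). That is 53.1% of them, against 27.3% of all genes tested. After centring on the epithelial list 3 were lower and 1 higher, where 301 and 2326 of all 10937 genes were. Both differences are taken from the same untreated arrays, so the day 7 difference less the day 4 difference is the step between the days. It was negative in 16 genes. It was largest in Irf7 (-1.51), Dhx58 (-1.37) and Mx1 (-1.15). Rtp4 and Oas1a both gave -0.87, and Cxcl9 gave -0.81. Ifit1 gave -0.79, Lgals3bp -0.77, Irf9 -0.73 and Ifit3 -0.63. Smaller steps were those of Zbp1 (-0.59), Ifih1 (-0.48), Oasl2 (-0.39), Parp14 (-0.38), Ddx58 (-0.37) and Parp9 (-0.32). Cxcl10 was the exception, at 1.13.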

How the results depend on the processing

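Across 20 alternatives, 1908 differences of tested members were recomputed: 1668 kept direction and side of the threshold, 130 were no longer past it, 85 became so and 25 changed sign with the deposited or the alternative value past it. A sign change with neither past it was counted as kept. Centring on 4 stromal lists reversed Ddx58 (-0.25), Dtx3l (-0.21), Parp14 (-0.09) and Cmpk2 (-0.01) at day 4, Eif2ak2 between the days (-0.42), and at day 7 Parp14 (-0.94), Irf9 (-0.93), Ifit3 (-0.91), Lgals3bp (-0.91), Bst2 (-0.86), Gbp3 (-0.84), Ifih1 (-0.83), Ifi35 (-0.75), Oasl2 (-0.74), Parp9 (-0.74), Ifitm3 (-0.70), Xaf1 (-0.63), Cmpk2 (-0.57), Ifi27 (-0.29), Gbp2 (-0.27) and Eif2ak2 (-0.26). Centring on the epithelial list reversed Parp9 (0.16), Ddx58 (0.10), Parp14 (0.09) and Oasl2 (0.08) between the days. A centring shifts every gene of an array alike, which is how these values arise. The medians of the members under epithelial and stromal centring were 0.33 and -0.04 at day 4, 0.32 and -0.99 at day 7, and 0.10 and -0.84 between the days, where centring on the tested genes gave -0.30. Over all genes the medians moved from 0.196 to 0.025 and -0.343, from 0.089 to 0.391 and -0.913, and from -0.101 to 0.373 and -0.562.

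With epithelial centring, members higher and lower numbered 5 and 4 at day 4, 9 and 4 at day 7, and 1 and 3 between the days; with stromal centring 0 and 5, 0 and 29, and 1 and 29. Array weights gave 10 higher at day 7. All genes higher and lower were 4574 and 2342 at day 4 (2459 higher with epithelial centring; 1448 and 4429 with stromal; 4077 lower with every probe set on its own), 3509 and 2406 at day 7 (1086 lower with epithelial centring; 343 and 8506 with stromal; 5360 and 3990 by probe set), and 1070 and 1921 between the days (2326 and 301 with epithelial centring; 433 and 6769 with stromal; 1759 higher by probe set; 1280 lower with no filter; 2992 lower with array weights). Except where values show it, the cause was not tested.

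Leaving out 1 array at a time gave 16 to 24 members higher and 3 to 4 lower at day 4, 3 to 8 and 6 to 9 at day 7, and 1 to 1 and 9 to 20 between the days, with medians of 0.40 to 0.62, -0.04 to 0.08 and -0.43 to -0.34. All genes ranged from 4096 to 4604 higher and 1988 to 2372 lower, from 2845 to 3696 and 1908 to 2463, and from 750 to 1214 and 1010 to 2273.

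Whether replicate numbers pair the arrays was not settled. Deviations of same-numbered arrays correlated at -0.118 to 0.183 over 9 pairs, 3 of them over 0.1. Those of differently numbered arrays correlated at -0.289 to 0.215, and 5 of 9 arrays correlated best with their own number. The fit with a replicate block called 20 higher and 4 lower at day 4, 7 and 8 at day 7, and 1 and 17 between the days.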
